A study of Homo sapiens with 6 samples.

Results

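The BCL2 family genes considered here are 10 genes of mitochondrial apoptosis, out of 20461 genes in the deposited RNA-seq table. They were taken as a fixed list of symbols, matched through their Ensembl identifiers, and all 10 were found and passed the filter on low counts. Their mRNA was measured in PANC1, an established human pancreatic carcinoma cell line, in 2 libraries from vehicle-treated cells (0.1% DMSO) and 2 libraries from cells treated with 50 nM gemcitabine for 48 h. Gemcitabine is a nucleoside analogue that blocks DNA synthesis and is used against pancreatic cancer. DNaseI-seq, which maps open chromatin, gave 1 peak list for vehicle and 1 for gemcitabine, from the same line. Vehicle and gemcitabine cells share the line and its growth medium, no gene was altered in either group, and a single line stands here for the tumour. The study's methods describe the RNA-seq libraries of a group as biological replicates, and the labels do not say how the cultures were separated.

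The proteins of the BCL2 family decide whether the outer mitochondrial membrane is opened and cytochrome c released. BAX and BAK1 form the pores, the prosurvival proteins BCL-XL (BCL2L1) and MCL1 hold them in check, and the BH3-only proteins relay stress by binding the prosurvival proteins, the effectors or both. PUMA (BBC3), NOXA (PMAIP1), BIM (BCL2L11), BID, BIK and BMF are the BH3-only members of the list.

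The upstream sequences of 3 members and 1 open region are shown because the text returns to them: BMF is the member that rose most clearly, BCL2L11 the member that fell, BAX has a start-site peak in the gemcitabine list only, and the last region is a peak inside BMF found in the gemcitabine list only. All are from the GRCh37 (hg19) reference, written 5′ to 3′, with capitals for the GC box (GGGCGG) and the CCAAT box on either strand. The upstream windows begin 250 bases before the start of the canonical transcript and stop at the first annotated exon of the gene. They read along the gene: BMF on the minus strand at chr15:40401094-40401330, BCL2L11 on the plus strand at chr2:111878241-111878490 and BAX on the plus strand at chr19:49457882-49458071. The BMF open region is the central 300 bases of its peak, at chr15:40384837-40385136 on the plus strand, within an intron.
BMF upstream: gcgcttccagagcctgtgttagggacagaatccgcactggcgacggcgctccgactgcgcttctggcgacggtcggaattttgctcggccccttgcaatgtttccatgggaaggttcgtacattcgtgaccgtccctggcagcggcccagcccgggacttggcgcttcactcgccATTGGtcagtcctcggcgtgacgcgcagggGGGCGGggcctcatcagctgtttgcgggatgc
BCL2L11 upstream: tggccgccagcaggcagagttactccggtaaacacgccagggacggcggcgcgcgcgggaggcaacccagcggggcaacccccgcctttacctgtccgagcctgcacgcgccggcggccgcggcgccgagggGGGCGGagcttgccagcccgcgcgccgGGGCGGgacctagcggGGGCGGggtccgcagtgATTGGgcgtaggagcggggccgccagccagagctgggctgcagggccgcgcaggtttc
BAX upstream: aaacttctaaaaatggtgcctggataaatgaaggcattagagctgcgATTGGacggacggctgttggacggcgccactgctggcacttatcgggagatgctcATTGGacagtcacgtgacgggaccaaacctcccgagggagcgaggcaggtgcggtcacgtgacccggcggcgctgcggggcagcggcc
BMF intronic open region: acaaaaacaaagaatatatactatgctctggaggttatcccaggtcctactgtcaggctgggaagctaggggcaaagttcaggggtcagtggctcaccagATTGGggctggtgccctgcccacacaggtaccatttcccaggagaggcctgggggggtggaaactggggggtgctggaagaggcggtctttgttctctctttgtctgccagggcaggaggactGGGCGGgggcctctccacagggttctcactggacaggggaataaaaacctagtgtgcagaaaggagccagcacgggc

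Over the full 250 bases before the canonical start, the G and C content was 65.2% for BMF, 76.8% for BCL2L11 and 62.8% for BAX. The median over 14089 promoters of tested genes was 65.6%. These 250 bases include those left out of the printed BMF and BAX sequences. In the same windows, a GC box on either strand was found in 9 of the 10 members, all but BCL2L1, and in 69.7% of all promoters. A CCAAT box stood in 5 members (BAX, BAK1, BCL2L11, BIK and BMF) and in 34.3% of all promoters. The AP-1 motif TGANTCA was found in 0 members and in 3.73% of promoters. These matches describe the letters of the windows and were not tested. Neither BMF nor BCL2L11, which moved in opposite directions, stood apart from the other by these motifs, since both windows hold the GC box and the CCAAT box.

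The RNA-seq libraries held 15153593 and 15766237 fragments on genes for vehicle and 13194533 and 13275457 for gemcitabine, so that 3 fragments correspond to 0.190 to 0.227 CPM (fragments scaled to the library total). All 7 genes listed as markers of an epithelial carcinoma line had fragments in every library, at unlike levels. KRT7 had 17323 and 17660 fragments with vehicle and 14571 and 14030 with gemcitabine. For KRT8 these were 10674 and 10794 against 12432 and 11762, and for KRT18 6039 and 5963 against 7000 and 6406. CDH1 had 4 and 7 fragments with vehicle and 13 and 9 with gemcitabine. For EPCAM these were 80 and 57 against 48 and 45, for KRT19 45 and 45 against 94 and 88. VIM, on the same list, had 10896 and 10621 against 9494 and 10781. All 5 acinar and islet markers had at most 3 fragments in every library. Of the endothelial markers, CDH5 had at most 3 fragments, and VWF had 8 and 9 with vehicle and 34 and 30 with gemcitabine. COL1A1 accounted for most of a summed fibroblast marker level that ranged from 872 to 875 FPKM in vehicle and from 1002 to 1114 FPKM in gemcitabine libraries, with COL1A2 at no more than 3 fragments. The summed leukocyte markers ranged from 10.7 to 10.9 FPKM in vehicle and from 20.6 to 24.7 FPKM in gemcitabine libraries, almost all of it CD68, with 3 of 5 markers at no more than 3 fragments in every library. The part of these markers in the results below was not tested.

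In vehicle-treated cells the family spanned a wide range of mRNA levels per transcript length, given as FPKM (fragments divided by transcript length in kilobases and by sequencing depth, mean ± SD, n = 2). BAX was the highest at 176 ± 3.64 FPKM, followed by MCL1 at 95.9 ± 0.691 FPKM, BID at 69.4 ± 5.05 FPKM and BCL2L1 at 30.7 ± 0.764 FPKM. BAX led only per transcript length, and the length implied by its counts and FPKM was 0.267 and 0.273 kb in the vehicle libraries. In CPM its vehicle mean was 47.4, below MCL1 at 357, BCL2L1 at 70.7 and BID at 66.3. PMAIP1 stood at 20.7 ± 1.11 FPKM, BCL2L11 at 18.0 ± 0.578 FPKM, BAK1 at 8.37 ± 1.47 FPKM, BBC3 at 6.11 ± 0.221 FPKM and BMF at 5.33 ± 1.39 FPKM. BIK was the lowest at 0.439 ± 0.0313 FPKM, from 6 and 10 fragments. BBC3 and BMF were the only neighbours in the FPKM order whose libraries overlapped. In gemcitabine-treated cells the first 5 genes kept their order, with BAX at 232 ± 14.2 FPKM and PMAIP1 at 31.5 ± 1.53 FPKM. BMF then moved from the ninth to the sixth place at 12.9 ± 2.05 FPKM, where its libraries overlapped those of BAK1 (11.9 ± 0.696 FPKM), and BAK1 overlapped BCL2L11 (11.6 ± 1.13 FPKM).

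**Figure D1:**
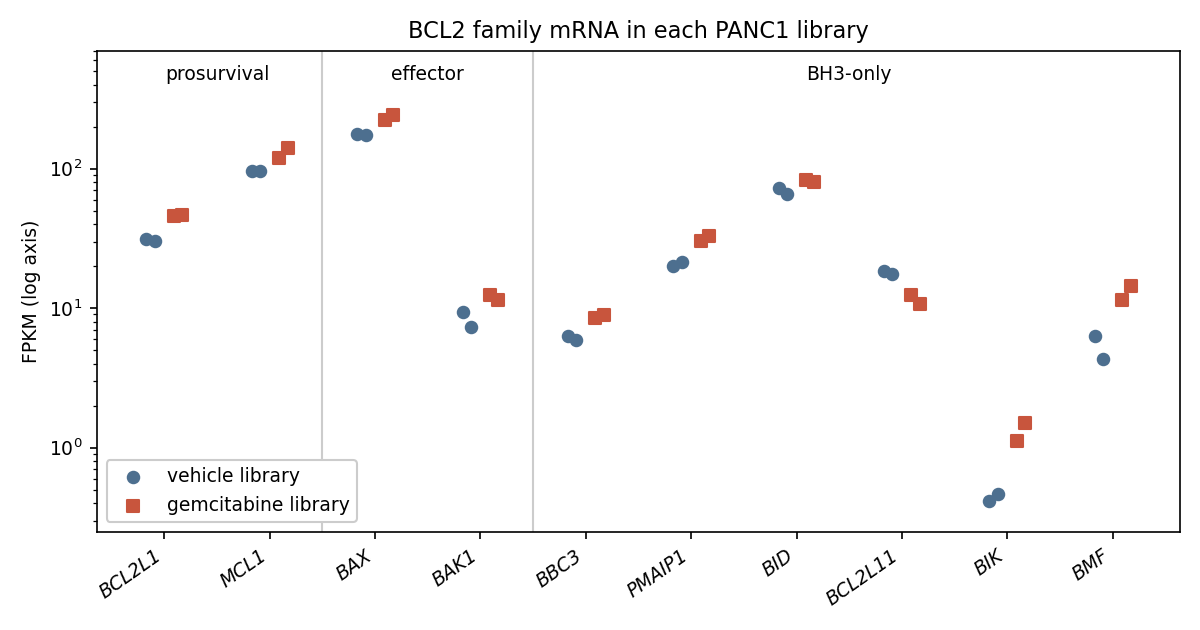
mRNA level of the 10 BCL2 family genes in each library, as FPKM on a log axis, with 2 vehicle libraries (circles) and 2 gemcitabine libraries (squares) per gene, grouped by role. BCL2L11 is the one gene whose gemcitabine libraries lie below its vehicle libraries, BMF rises from 5.33 to 12.9 FPKM on average, and BIK lies far below the other members.

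After gemcitabine the mRNA of 6 of the 10 members was higher at an adjusted p under 0.05 (edgeR, quasi-likelihood test, Benjamini-Hochberg adjustment), namely BCL2L1, MCL1, BAX, BAK1, PMAIP1 and BMF. The mRNA of BCL2L11 was lower, and BBC3, BID and BIK did not pass. Over all 14854 genes tested, 18.5% were higher and 20% lower by the same rule. The median log2 fold change of the 10 members was 0.35, against 0.01 for all genes tested. With library totals in place of TMM scaling, these medians were 0.46 and 0.12, and the members stood above the shifted median by a similar amount. The members were chosen with earlier results of these data known, so these contrasts do not test the family as a set.

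A gene was called when it also met the study's further limits, a fold change over 1.5, a mean of at least 0.1 FPKM in 1 condition and a difference of at least 1 FPKM. The study took the fold from Cuffdiff's FPKM, whereas the edgeR fold was used here, and 1 member met all limits. That gene was BMF, called higher, as were 5.69% of all genes tested, and 0 members were called lower, against 4.42% of all genes. The count of 1 in 10 is no more than the 10.1% of all genes called in either direction. With library totals the genes called over the whole table were 1164 higher and 418 lower instead of 845 and 656, and the members called higher were BCL2L1 and BMF. With the ratio of mean FPKM as the fold, a rule chosen after seeing the data, 3 members were called higher (BCL2L1, PMAIP1 and BMF), against 8.13% of all genes, and 1 lower (BCL2L11), against 3.16%. In FPKM, both gemcitabine libraries lay above both vehicle libraries for 9 members and below them for 1, and the same held in CPM. Over all genes tested these shares were 41.8% and 20.3% in FPKM, and 46.2% and 24.6% in CPM.

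**Figure D2:**
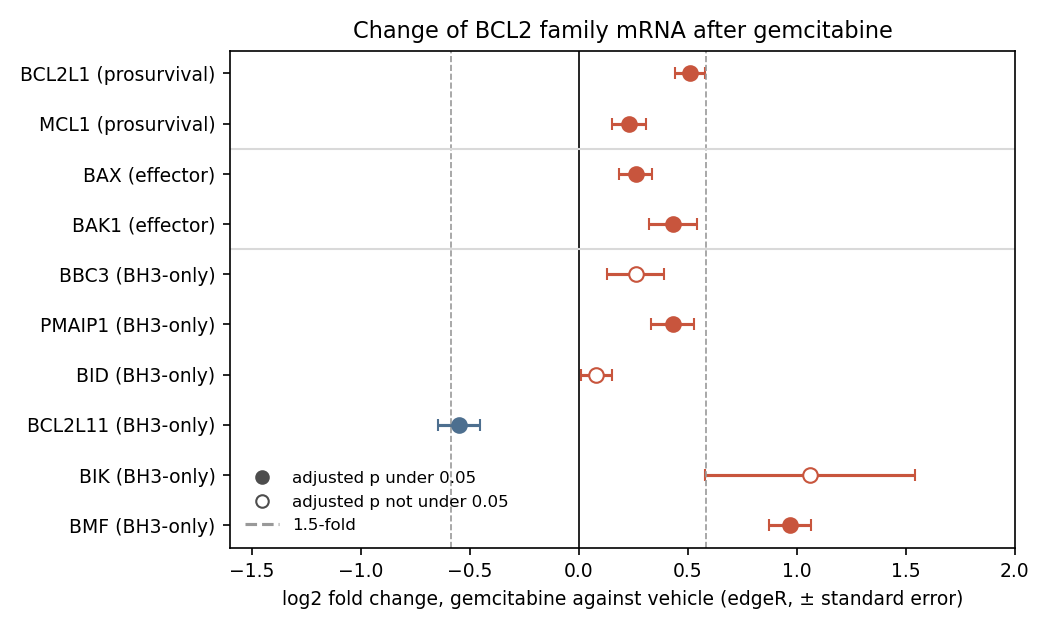
Log2 fold change of each member, gemcitabine against vehicle (edgeR, 2 libraries per condition), with bars of 1 standard error. Filled points have an adjusted p under 0.05, and the dashed lines mark a change of 1.5-fold. BMF at 0.97 is the filled point beyond the dashed line on the right, BCL2L11 at -0.55 is the point left of 0, and the bar of BIK is the widest.

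Both prosurvival members rose. BCL2L1, which encodes BCL-XL, gave 1064 and 1122 fragments with vehicle and 1426 and 1441 with gemcitabine. In FPKM it measured 31.3 and 30.2 with vehicle and 45.6 and 46.6 with gemcitabine, so the groups were clearly apart and the replicates close together. The fold change was 1.42 (log2 0.51, SE 0.067, adjusted p 4.05e-05 by edgeR), below the limit of 1.5, while the ratio of mean FPKM was 1.5015. It passed the limit with library totals, at a log2 fold change of 0.62. BCL2L1 also yields a proapoptotic short splice form, BCL-XS, which the gene total does not separate. In addition, 36.7% of its canonical exon bases overlap ABALON, an antisense RNA. The labels do not state a stranded preparation, so reads of such partners cannot be told apart.

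MCL1, a prosurvival protein with a short half-life that restrains BAK1 and BIM, was the most heavily counted member, with 5338 and 5712 fragments in vehicle and 5536 and 6458 in gemcitabine libraries. Its FPKM was 95.4 and 96.4 with vehicle and 119 and 142 with gemcitabine, so the gemcitabine libraries lay above vehicle but were spread more widely. The fold change was 1.18 (log2 0.23, SE 0.079, adjusted p 0.0302 by edgeR). The size of this rise depended on the gemcitabine library kept. The log2 fold change was 0.11 without gemcitabine replicate 2 and 0.35 without gemcitabine replicate 1. It was 0.23 without vehicle replicate 1 and 0.26 without vehicle replicate 2. The adjusted p (edgeR, DESeq2 or limma) ranged from 0.0024 to 0.132 over the 10 alternatives that kept every library. The ratio of MCL1 to BCL2L1 fragments was 5.02 and 5.09 in vehicle and 3.88 and 4.48 in gemcitabine libraries, and the groups did not overlap. An exact permutation test over 2 against 2 libraries cannot give a p below 0.333, which is the value here and for every such ratio or share whose groups did not overlap.

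Both pore-forming effectors rose as well, by less than 1.5-fold. BAX, the cytosolic effector that moves to mitochondria on activation, had 721 and 746 fragments with vehicle and 815 and 810 with gemcitabine. In FPKM these were 178 and 173 against 222 and 242, with no overlap. The fold change was 1.20 (log2 0.26, SE 0.074, adjusted p 0.0114 by edgeR). BAK1, the effector that resides in the outer mitochondrial membrane, had 243 and 220 fragments with vehicle and 301 and 277 with gemcitabine. Its FPKM was 9.40 and 7.33 against 12.4 and 11.4. The fold change was 1.35 (log2 0.43, SE 0.11, adjusted p 0.00792 by edgeR). Without vehicle replicate 1 the adjusted p of BAX was 0.0969 (log2 0.28) and without vehicle replicate 2 it was 0.118 (log2 0.26), within a range of 0.00142 to 0.118 over 14 alternatives. BAK1 did not pass without vehicle replicate 2, at a log2 fold change of 0.34 (adjusted p 0.151, range 0.000724 to 0.202), and neither gene passed with DESeq2 (adjusted p 0.0661 for BAX and 0.0634 for BAK1).

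Among the 6 BH3-only genes, 2 rose (BMF and PMAIP1), 1 fell (BCL2L11) and 3 did not pass the test. BMF encodes a BH3-only protein known for its link to the actin and myosin motor machinery and to loss of cell attachment. Its fragments numbered 281 and 278 with vehicle and 534 and 481 with gemcitabine, so replicates were tight and the groups far apart. The fold change was 1.96 (log2 0.97, SE 0.096, adjusted p 3.16e-06 by edgeR), and 7.4% of all genes tested had a larger log2 fold change. Leaving out any 1 library kept it between 0.91 and 1.04, and it met every call criterion each time.

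In FPKM, BMF was 6.31 and 4.35 with vehicle and 11.5 and 14.4 with gemcitabine, a ratio of means of 2.43. Of the gemcitabine libraries, the one with more BMF fragments had the lower FPKM. The transcript length implied by the counts and FPKM was 2.94 and 4.06 kb in the vehicle libraries and 3.52 and 2.52 kb in the gemcitabine libraries. This length is CPM divided by FPKM, so it varies wherever the 2 measures disagree, and the reason for the disagreement was not tested. The replicates of BMF were closer in fragment counts than in FPKM. BMF-AS1, on the opposite strand, overlaps 9.83% of the canonical exon bases of BMF.

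BCL2L11 encodes BIM, a BH3-only protein that binds all prosurvival family members and also engages BAX directly. Its fragments fell from 464 and 480 in vehicle to 316 and 280 in gemcitabine libraries, and its FPKM from 18.4 and 17.6 to 12.4 and 10.8. The log2 fold change was -0.55 (SE 0.096, adjusted p 0.000422 by edgeR), a decrease of 1.46-fold, and 8.85% of all genes tested had a lower value. This lay just inside the limit of 1.5-fold, while the ratio of mean FPKM, 0.640, lay beyond it. Without gemcitabine replicate 1 the log2 fold change was -0.62 and BCL2L11 was called lower, as it was by limma on log2 FPKM with low genes removed. MIR4435-2HG, on the opposite strand, overlaps 14.3% of its canonical exon bases.

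BMF gave fewer fragments than BCL2L11 with vehicle and more with gemcitabine. There were 0.606 and 0.579 BMF fragments per BCL2L11 fragment in the vehicle libraries and 1.69 and 1.72 in the gemcitabine libraries. The replicates differed little and the conditions did not overlap. Per transcript length, BMF lay below BCL2L11 in both vehicle libraries and in gemcitabine replicate 1 (11.5 against 12.4 FPKM), and above it in gemcitabine replicate 2 (14.4 against 10.8 FPKM). BCL2L11 fragments per BCL2L1 fragment went from 0.436 and 0.428 with vehicle to 0.222 and 0.194 with gemcitabine, as the BH3-only gene fell and the prosurvival gene rose.

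PMAIP1, which encodes NOXA, a BH3-only protein that binds MCL1 selectively, had 445 and 553 fragments with vehicle and 593 and 651 with gemcitabine. Its FPKM was 19.9 and 21.4 against 30.5 and 32.6. The fold change was 1.35 (log2 0.43, SE 0.098, adjusted p 0.00279 by edgeR), and the ratio of mean FPKM was 1.53. Without vehicle replicate 1, the lower of the pair, the log2 fold change was 0.32 and the adjusted p 0.0976, against a range of 3.34e-07 to 0.0976 over 14 alternatives. The ratio of PMAIP1 to MCL1 fragments was 0.0834 and 0.0968 with vehicle and 0.107 and 0.101 with gemcitabine.

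The other 3 BH3-only genes did not pass. BBC3, which encodes PUMA, a BH3-only protein that binds all prosurvival family members, had 173 and 167 fragments with vehicle and 182 and 194 with gemcitabine (log2 0.26, SE 0.13, adjusted p 0.13 by edgeR). BID, which is cleaved by caspase 8 and links death receptors to mitochondria, had 1023 and 1027 fragments against 998 and 998 (log2 0.08, SE 0.07, adjusted p 0.427 by edgeR). Both were under 0.05 with library totals alone, at 0.0361 for BBC3 (log2 0.37) and 0.0439 for BID (log2 0.19). The adjusted p of BBC3 ranged from 0.0361 to 0.438 and that of BID from 0.0439 to 0.739 over 14 alternatives. BIK, a BH3-only protein of the endoplasmic reticulum, had 6 and 10 fragments against 13 and 18. Its log2 fold change of 1.06 was nominally larger than that of BMF, but its SE was 0.48 and its adjusted p 0.0978 by edgeR, so a change of this size was not resolved at this depth.

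Of the summed FPKM of the 10 members, the prosurvival genes held 29.4% ± 0.752 with vehicle and 31.1% ± 1.28 with gemcitabine (SD, n = 2). The effectors held 42.8% ± 0.0667 and 42.9% ± 0.0548, and the BH3-only genes 27.8% ± 0.686 and 26.0% ± 1.33. Within the BH3-only genes, BCL2L11 held 14.8% and 15.2% of the summed FPKM in the vehicle libraries and 8.39% and 7.28% in the gemcitabine libraries. BMF held 4.42% ± 0.931 with vehicle and 8.78% ± 1.36 with gemcitabine. PMAIP1 went from 17.3% ± 1.80 to 21.4% ± 0.976, and BID, at 57.8% ± 1.27 and 55.2% ± 1.91, remained the largest. The libraries of the conditions did not overlap for any of these shares, and the exact permutation test gave p = 0.333 for each, the smallest it can give. In CPM, however, the libraries overlapped for all 3 roles, with an exact permutation p of 1 for each. With vehicle, the mean CPM shares were 65.9% prosurvival, 9.62% effector and 24.4% BH3-only. With gemcitabine they were 66.5%, 9.89% and 23.6%. The prosurvival share differed by 1.66 percentage points in FPKM and 0.584 in CPM, and from 0.758 without gemcitabine replicate 2 to 2.56 without gemcitabine replicate 1. The BH3-only share differed by -1.82 points in FPKM and -0.852 in CPM, and by -0.88 and -2.76 without the same libraries.

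**Figure D3:**
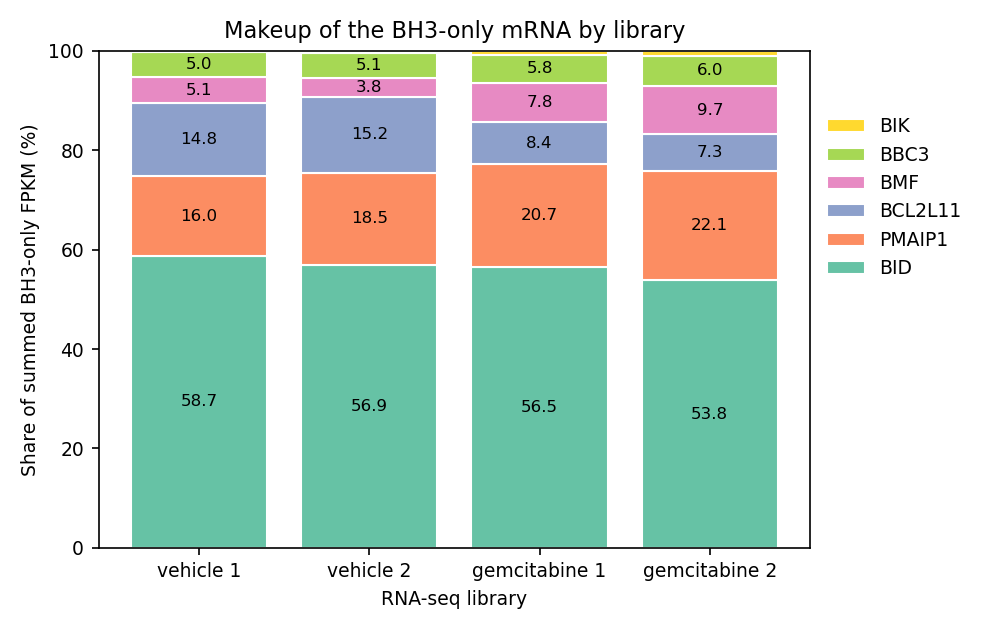
Share of each BH3-only gene in the summed BH3-only FPKM (percent, stacked to 100) in the 2 vehicle and 2 gemcitabine libraries. The BCL2L11 segment shrinks from 14.8% and 15.2% to 8.39% and 7.28%, the BMF segment grows from 4.42% to 8.78% on average, and BID makes up the largest segment in each library.

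Open chromatin was compared as peak lists, 9606 peaks with vehicle and 10695 with gemcitabine, in which 57.7% and 51.8% of the peaks overlapped a peak of the other list. Each list came from 1 library, so no difference between them has a replicate check. The score of a peak is -10 log10 of its p-value, and the lists begin at 50. A peak lay within 5 kb of a transcription start for 5 of the 10 members (BCL2L1, MCL1, BAX, BBC3 and BMF), near the 44.1% of tested genes with coordinates. In both lists this held for 3 members (BCL2L1, BBC3 and BMF), against 24.2% of genes, in the gemcitabine list alone for 2 (MCL1 and BAX), against 12.4%, and in the vehicle list alone for 0, against 7.49%. No such peak was listed for BAK1, PMAIP1, BID, BCL2L11 or BIK in either condition, and the lists do not show signal below their threshold.

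The start of BMF was open in both conditions, at chr15:40400691-40401827 with a score of 87.1 in vehicle and chr15:40400919-40402012 with a score of 87.2 in gemcitabine. The BMF upstream sequence printed above lies within both peaks. The gemcitabine list held a further peak inside BMF, at chr15:40384331-40385641 with a score of 122, in an intron 16094 bases downstream of the canonical start. Its central 300 bases hold 1 GC box and 1 CCAAT box, found in 30.6% and 38% of the equally long centres of gemcitabine peaks, and no AP-1 motif, which was found in 19.4%. BCL2L11, whose mRNA fell, had no peak in either list within its span or 20 kb around it.

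The BCL2L1 start carried a peak in both lists, with scores of 82.8 in vehicle (chr20:30310795-30312115) and 67.9 in gemcitabine (chr20:30310744-30312164). A region upstream of the gene, 14667 bases from the nearest start in vehicle and 14503 bases in gemcitabine, scored 165 and 98.8. A peak in an intron at chr20:30300329-30301949, scoring 82.2, was in the gemcitabine list only. The start peaks of MCL1 (chr1:150551821-150552518, score 51.5) and BAX (chr19:49457730-49458331, score 51.2) were found with gemcitabine only and barely exceeded the threshold of 50, and a region just below it would not be listed. Farther out, MCL1 had a vehicle peak 17865 bases downstream of its canonical start (score 84.1). BAX had gemcitabine peaks 9653 and 24151 bases downstream (scores 57.9 and 97.0). Peaks were gathered by position alone, within 20 kb of each gene span. Whether these farther peaks, or the region upstream of BCL2L1, lie at starts of neighbouring genes was not examined. BBC3 had a peak in an intron in both lists, with scores of 107 in vehicle and 75.5 in gemcitabine. With a minimum score of 100, BBC3 was the 1 member left with a peak near a start, in the vehicle list only.

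**Figure D4:**
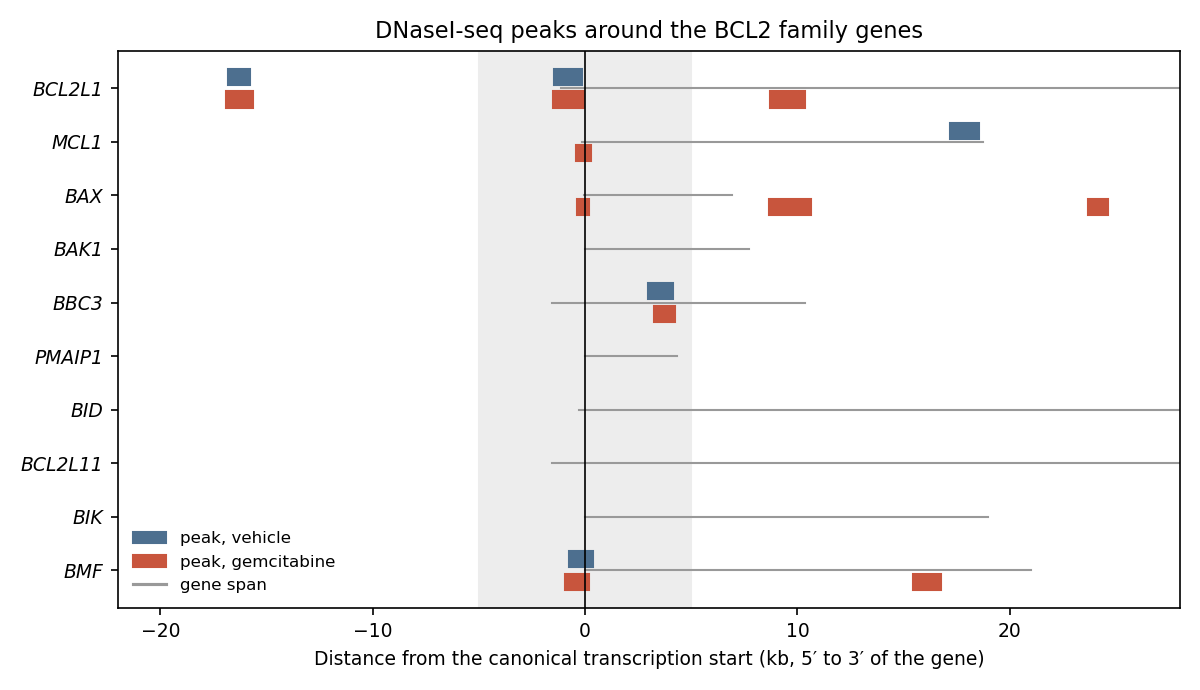
DNaseI-seq peaks around the 10 genes, as distance from the canonical transcription start in kb along the gene, with vehicle peaks above and gemcitabine peaks below each gene line and the 5 kb window shaded. BMF has start peaks in both lists and 1 gemcitabine peak about 16 kb into the gene, and 5 genes have no peak (1 BCL2L1 peak farther downstream is beyond the axis).

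The remaining family members moved in both directions. Of 13 listed, 9 were tested, of which 3 were higher and 3 lower at an adjusted p under 0.05 by edgeR, against 18.5% and 20% of all genes tested, with a median log2 fold change of -0.14. BAD, a BH3-only protein governed by survival kinases, rose from 175 and 179 fragments to 287 and 292 (log2 0.82, SE 0.11, adjusted p 5.59e-05 by edgeR). It was the one gene called, against 5.69% of all genes tested called higher and 4.42% called lower. BCL2L12 and BCL2L13 also rose, and BOK and BNIP3 fell, each by less than 1.5-fold (these 4 were named after their values were seen). BCL2, the founding prosurvival gene, had 306 and 333 fragments with vehicle and 246 and 232 with gemcitabine (log2 -0.30, SE 0.10, adjusted p 0.0321 by edgeR). It did not pass without vehicle replicate 1 (-0.32), vehicle replicate 2 (-0.27) or gemcitabine replicate 2 (-0.27). It also did not pass with DESeq2 (-0.30), library totals (-0.19), no filter on low counts (-0.30) or the limma fits (-0.06 to -0.08), with adjusted p of 0.0321 to 0.835 over the 10 alternatives that kept every library. BCL2L2, another prosurvival gene, was at -0.14 (adjusted p 0.316), and BCL2A1 had 1 fragment in 1 vehicle library and 0 in the others.

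A downstream list of 16 genes covered the apoptosome, the caspases and their inhibitors, with further mitochondrial proteins that include membrane channels such as VDAC1. All 16 were tested, and 5 were higher and 2 lower at an adjusted p under 0.05 by edgeR, against the same 18.5% and 20%. Their median log2 fold change was 0.09. BIRC3, which encodes the caspase and NF-kB regulator cIAP2, rose from 168 and 183 fragments to 370 and 388 (log2 1.22, SE 0.11, adjusted p 1.2e-06 by edgeR). It was the one gene called, against the same 5.69% called higher and 4.42% called lower. The adaptor APAF1, the initiator caspase CASP9 and BIRC2 were among those that rose, and CYCS, which encodes cytochrome c, and VDAC1 fell (named after their values were seen). Of 14 listed regulators of the family, 13 were tested, of which 4 were lower, against 20% of all genes, and 9 did not pass. E2F1, a transcription factor of the cell cycle that can drive BH3-only genes, fell from 1487 and 1392 fragments to 667 and 727 (log2 -0.93, SE 0.081, adjusted p 1.05e-06 by edgeR). ATF4, a stress-response factor that can induce PMAIP1, fell from 2844 and 2825 to 1680 and 1702 (log2 -0.63, SE 0.067, adjusted p 5.61e-06 by edgeR). TP73 had 3 to 6 fragments in each library, too few to compare.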

How the data were processed

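RNA-seq of 4 PANC1 libraries and DNaseI-seq of 2 were used. The authors aligned reads to hg19 with TopHat2 2.0.8 and deposited, from Cuffdiff 2.0.2, the estimated count of fragments and the FPKM of each protein-coding gene of Gencode. They called MACS peaks per condition at a p of 1e-05 and deposited a score for each peak. The 2 further columns of scaled values per library were not used. Library indices could not be tied to the labels' replicate numbers and serve as names.

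Estimated counts were rounded. The test was edgeR 4.0.16 (R 4.3.3, TMM, quasi-likelihood, Benjamini-Hochberg) on the 14854 genes whose counts summed to at least 10, after a check on simulated counts. Replicates differed by more than sampling noise (mean chi-square per gene 2.17 and 5.16). Alternatives used DESeq2 1.42.0, limma 3.58.1 on log2 FPKM, other scalings and filters, each library left out, and stricter peak rules. Shares were compared with an exact permutation test (2-sided). Transcript starts, exons and windows came from GRCh37 with a later Gencode annotation than the authors used. No protein sequence was searched.

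The members and lists were chosen with earlier results of these data known. All 10 members were named. From the other lists, called genes and BCL2, BCL2A1, BCL2L2, BAD and TP73 were named. Other genes of these lists that the text names were chosen after their values were seen, and a few further results are not reported here.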

Additional observations from a re-analysis of the deposited data

How the results depend on the processing

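Depth limits BIK, with 6 to 18 fragments per library. For BMF, fragment counts and FPKM ordered the gemcitabine libraries differently, for a reason that was not tested. Scaling sets the centre: the median log2 fold change of all genes was 0.007 with TMM and 0.117 with library totals. Where 1 library is left out, the lone library is assumed to vary like the other condition.

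BMF kept its direction under every alternative and its call under all but limma on log2(FPKM + 1) without a filter, which called 0 genes of the whole table in either direction. There the log2 fold changes that no longer passed were 0.57 for BCL2L1, 0.43 for MCL1, 0.40 for BAX, 0.47 for BAK1, 0.59 for PMAIP1, -0.60 for BCL2L11 and 1.15 for BMF, and 0 members were higher or lower. With a filter at a mean of 0.1 FPKM, limma did not pass MCL1 (0.43) or BAK1 (0.47) and passed BIK (0.68). It called 2 members higher (BMF and PMAIP1) and 1 lower (BCL2L11), against 894 genes higher and 326 lower of 14105 tested. With a pseudocount of 0.1 the values were 0.44 for MCL1, 0.51 for BAK1 and 1.38 for BIK. There 3 members were called higher (BCL2L1 joining) and 1 lower, against 910 genes higher and 350 lower of 14105 tested. Without a filter on counts, MCL1 (0.24) did not pass. DESeq2 did not pass BAX (0.26) or BAK1 (0.43). With the ratio of mean FPKM as the fold, 3 members were called higher and 1 lower, a rule chosen after seeing the data. Library totals passed BBC3 (0.37) and BID (0.19) and called 2 members higher.

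Leaving out 1 library gave log2 fold changes of 0.11 to 0.35 for MCL1, 0.25 to 0.28 for BAX, 0.34 to 0.55 for BAK1 and 0.32 to 0.57 for PMAIP1. Without either vehicle library, 3 members rather than 6 were higher at an adjusted p under 0.05. The members higher ranged from 3 to 6 over these fits, and those called lower from 0 to 1. By adjusted p alone, 6 members were higher and 1 lower, the other family genes 3 and 3, the downstream genes 5 and 2, and the regulators 0 and 4. The downstream genes called higher were 2 with library totals (BIRC2 joining) and 0 in the 3 limma fits, and 1 to 2 with 1 library left out. Other family genes called lower were 0 to 1 (BOK) with 1 library left out, and 0 were called higher by limma without a filter. Regulators called lower were 1 with library totals and in the limma fits with a filter and 0 without one, and those called higher were 0 to 1 (DDIT3) with 1 library left out. TP73 turned to -0.30 without gemcitabine replicate 2 (0.70 without gemcitabine replicate 1). The effector share differed by 0.268 percentage points in CPM against 0.161 in FPKM, and the prosurvival share by 0.584 against 1.66, an alternative chosen after seeing the data. At a peak score of 100, 1 member (BBC3) had a peak near a start, in the vehicle list only, and 0 members had such a peak with no overlap at any score in the other list.

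The replicate index gave no sign of pairing (correlation of deviations -0.0167). With it as a replicate block, BMF stayed at 0.97 and the genes called were 844 higher and 661 lower against 845 and 656, and no call of a member changed.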
